A study of Mus musculus with 3 samples.

Results

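The 10 genes described here encode the NF-kappaB transcription factor subunits (Nfkb1, Nfkb2, Rel, Rela and Relb) and 5 of their inhibitors (Nfkbia, Nfkbib, Nfkbie, Nfkbiz and Tnfaip3). They were taken by gene symbol, and all 10 were found among the 56833 genes of the deposited table. RNA had been sequenced from cells sorted out of mouse ankle synovium, the tissue that lines the joint, and grown for 24 h on collagen-coated plates of 1 of 3 stiffness levels. The soft plates had 0.2 kPa, those called intermediate 8 kPa and the stiff ones 64 kPa. The genotype was Efhd1CreER; Ai9 in every library, and the treatment differed only in the stiffness of the plate. Ai9 is a reporter allele that makes the red protein tdTomato once a Cre recombinase has acted. Here the inducible Cre is driven from Efhd1. By design the sorted tdTomato+ cells are those in which that gene was active at labelling, and their descendants. The purity of these sorted cells was not tested. The labels call them telocytes, interstitial cells with long thin processes. The cells were kept in DMEM with an F12 supplement. The labels give no age or number of animals, and up to 2 synovia were digested in a tube. There was 1 library per level. No difference below therefore has a replicate check or a p-value, and a difference between cultures cannot be told apart from a difference between stiffness levels.

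NF-kappaB proteins share a Rel homology domain with which they pair and bind DNA. Rela (p65), Rel (c-Rel) and Relb carry a domain that activates transcription, while Nfkb1 and Nfkb2 are made as long precursors, p105 and p100, that are cut to p50 and p52. In resting cells the IkB proteins, among them those of Nfkbia, Nfkbib and Nfkbie, hold the dimers in the cytoplasm. TNF, IL-1 and Toll-like receptor signals lead the IKK kinases to phosphorylate IkB, which is destroyed, and the dimers enter the nucleus. Several of the genes they switch on encode their own inhibitors and subunits, which makes the pathway a feedback loop. In synovial fibroblasts and macrophages the pathway is best known for cytokine, chemokine and matrix protease expression in arthritis.

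The libraries held between 25487064 and 28081600 reads. Fibroblast genes were abundant in each library, with Col1a1 at 78648 to 151834 and Pdgfra at 5118 to 6298 normalized counts (reads scaled by 1 factor for each library). Of the telocyte markers Cd34 was covered by 229 to 310 and Foxl1 by 181 to 247 reads, while Kit had 41 to 44 and Efhd1 itself 3 to 10 reads. The B cell genes Cd79a and Ms4a1, the T cell genes Cd3e and Cd3d, and the neutrophil genes Ly6g and S100a9 had no read in any library. Of the same lists, the neutrophil gene S100a8 had 197 to 220 reads, and the T cell receptor gene Trac had 7, 19 and 29 reads in the order soft, intermediate, stiff. No endothelial marker had more than 45 reads. Macrophage genes were present throughout and differed between the libraries. The 15 macrophage markers summed to 36082 normalized counts on the soft plate, 45463 on the intermediate plate and 77536 on the stiff plate, none was at 0, and 11 of them were at least 1 higher on the log2 scale in the stiff than in the soft library. NF-kappaB genes are expressed in macrophages as well as in fibroblasts, and the part of these cells in the results below was not tested.

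Members of the family are themselves textbook targets of NF-kappaB, and the sequences before their start sites were searched for the element it binds. RefSeq promoter sequences of build GRCm38.p6 were matched by symbol for 7 of the 10 genes (Nfkb2, Rel, Rela, Nfkbia, Nfkbib, Nfkbie and Tnfaip3), but not for Nfkb1, Relb and Nfkbiz. The 250 bases before each annotated start were searched on both strands for the kappaB consensus decamer. The 2 longest sequences below are shown because Nfkbia is the inhibitor with the highest level and Tnfaip3 the inhibitor with the largest ratio in favour of the stiff library. Of the 3 short ones, that of Nfkb2 shows 1 of the places at which it matched, and those of Rel and Nfkbie the only place found in their windows. All are written 5′ to 3′ along the strand of the gene, and capitals mark the bases covered by a match. In Nfkb2 and Rel, 2 matches overlap and are marked as 1 run.
Nfkbia, minus strand, chr12:55492648-55492897: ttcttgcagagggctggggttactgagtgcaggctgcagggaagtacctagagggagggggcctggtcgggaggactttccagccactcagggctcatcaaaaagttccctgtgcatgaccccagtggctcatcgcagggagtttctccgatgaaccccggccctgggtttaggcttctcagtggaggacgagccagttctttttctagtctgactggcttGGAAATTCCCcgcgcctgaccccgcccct
Tnfaip3, minus strand, chr10:19015411-19015660: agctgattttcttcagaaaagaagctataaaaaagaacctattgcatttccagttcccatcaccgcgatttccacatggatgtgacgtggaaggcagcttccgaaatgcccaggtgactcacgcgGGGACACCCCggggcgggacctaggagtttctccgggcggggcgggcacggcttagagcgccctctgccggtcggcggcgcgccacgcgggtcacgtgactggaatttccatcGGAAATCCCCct
Nfkb2, plus strand, chr19:46304688-46304717: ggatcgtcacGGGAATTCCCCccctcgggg
Rel, minus strand, chr11:23771042-23771071: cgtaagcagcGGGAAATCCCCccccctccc
Nfkbie, plus strand, chr17:45555584-45555613: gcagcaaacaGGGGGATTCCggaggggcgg

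Of the 7 matched genes, 5 held the decamer in at least 1 window (Nfkb2, Rel, Nfkbia, Nfkbie and Tnfaip3), against 8.23% of all 27025 symbols in the promoter table and 10.6% of the 9326 symbols whose mean here reached 50 normalized counts. Counted by window, 7 of their 10 windows held it, against 7.25% of all windows. The match of Nfkbia, GGAAATTCCC, begins 29 bases before the start. Nfkb2 has 3 annotated starts, with 5 matches in all and at least 1 before each, and Tnfaip3 has 2, of which 1 has matches. Rela and Nfkbib held none in these windows. The matches describe these letters only. The starts are those of RefSeq, and GENCODE transcripts of some genes reach further upstream. Counted along the transcript, the longest reach was 295 bases for Rel and 76 for Rela. For the 3 starts of Nfkb2 it was 417, 23 and 806 bases. The matches printed for Rel and Nfkb2 thus lie downstream of another annotated start. For Nfkbib the bases after the start were found in no GENCODE transcript. As the ratios below show, genes with a match included some that were higher in the stiff library (Tnfaip3 and Nfkbie), some that differed little (Nfkbia and Rel) and Nfkb2, whose direction is uncertain.

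Levels of different genes were compared as normalized counts per kilobase of merged exons in the GENCODE vM39 annotation of GRCm39. Nfkbia, which encodes IkBalpha, stood highest in every library, at 1229 on the soft plate, 1333 on the intermediate plate and 1247 on the stiff plate. Rela was next in every library, at 637, 762 and 903. Nfkbib, Nfkb2 and Relb formed a middle group, between 198 and 277. In that group the counting intervals of Relb and Nfkb2 overlapped in the soft library, as did those of Nfkbib and Nfkb2 and of Nfkb2 and Relb in the intermediate and those of Nfkb2 and Nfkbib in the stiff library. Nfkb1, at 87.5 to 117, and Nfkbie, at 72.4 to 99.0, followed in that order in every library.

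Tnfaip3, Nfkbiz and Rel were the lowest 3 per kilobase, and the order among them differed between libraries. In the soft library Nfkbiz was at 51.3, Tnfaip3 at 45.9 and Rel at 42.3, and neighbours overlapped within counting error. In the stiff library Tnfaip3 was at 73.0, Rel at 39.0 and Nfkbiz at 31.0. There Tnfaip3 stood clear, and the intervals of Rel and Nfkbiz overlapped. The order depends on the gene model. With the length of the Ensembl canonical transcript, Rel at 39.0 lay below Nfkbiz at 43.1 in the stiff library. Per kilobase of the Ensembl canonical transcript Nfkb1, whose merged exons span 12848 nt against 4704 nt in that transcript, was at 292 on average over the 3 libraries instead of 107, and then lay above Nfkb2 in the soft and intermediate libraries. Nfkbib was then at 422 to 475, above Nfkb2 and Relb in every library, so the middle group given above holds for merged exons only.

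**Figure D1:**
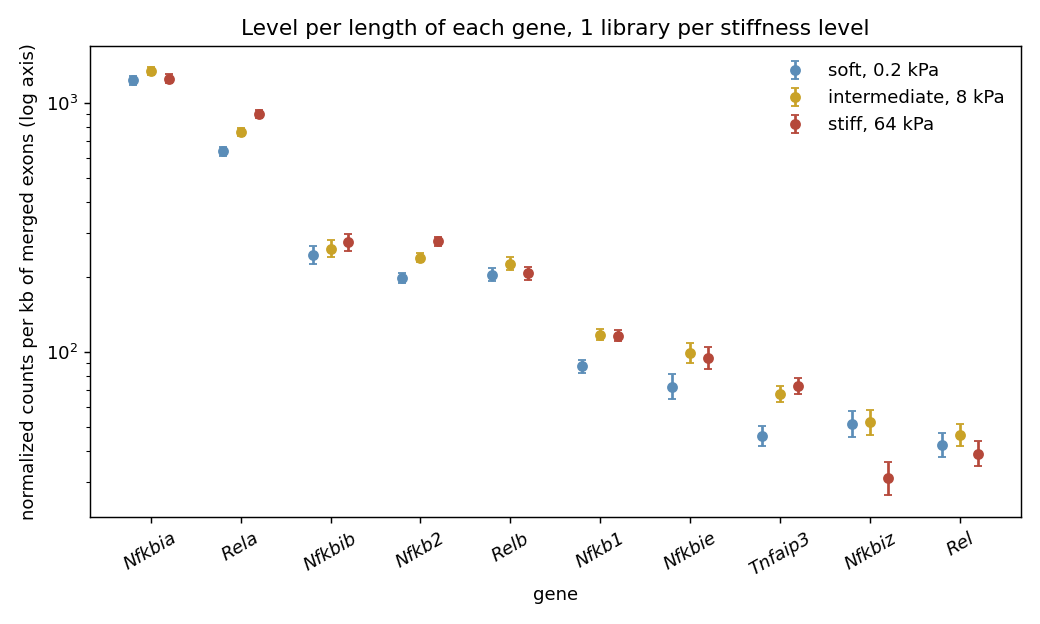
Normalized counts per kilobase of merged exons (log axis) for each gene on the soft, intermediate and stiff plate, with exact 95% Poisson intervals of the reads. Nfkbia and Rela lie above all other members in each library. Nfkbiz has the lowest value in the stiff library, where its interval overlaps that of Rel. Per kilobase of canonical transcript Rel is the lowest there.

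Among the subunits, Rela and Nfkb2 were higher with each step of stiffness, although the direction for Nfkb2 turned with a correction for transcript length and GC content given further on. Rela, the main activating subunit, spans bases 5687493 to 5698161 of chromosome 19 in GRCm39 (plus strand), with 11 exons in its canonical transcript. It had 2086 normalized counts on the soft plate, 2495 on the intermediate plate and 2955 on the stiff plate. The 3 values differed by more than counting error. The log2 ratio of stiff to soft, taken on normalized counts plus 1, was 0.50, with an exact 95% counting interval from 0.42 to 0.59, which is a 1.42-fold difference. The steps were of similar size, at 0.26 for intermediate to soft and 0.24 for stiff to intermediate. Here and below, more RNA per cell cannot be told apart from a larger share of cells that express the gene.

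Nfkb2, the p100 precursor of the noncanonical pathway, spans bases 46292759 to 46303812 of the same chromosome and strand, with 23 exons. Its levels were 1562, 1885 and 2188 normalized counts on the soft, intermediate and stiff plate. These also stood apart in this order, with a stiff to soft ratio of 0.49 (interval 0.39 to 0.58) and steps of 0.27 and 0.21. Exons of 2 genes on the other strand, Psd and 4833438C02Rik, overlap those of Nfkb2. Whether reads were counted by strand is not given in the sources used here. These 2 genes had at most 63 and 98 reads in a library, against 1524 to 2134 for Nfkb2, and the effect of the overlap on Nfkb2 was not tested.

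Nfkb1, which encodes p105 and p50, spans bases 135290264 to 135397742 of chromosome 3 (minus strand), with 25 exons. It had 1124 normalized counts on the soft plate, 1505 on the intermediate plate and 1490.1 on the stiff plate. The soft library was the low one, and the intermediate and stiff libraries overlapped within counting error. The ratio of intermediate to soft was 0.42 (0.31 to 0.53), that of stiff to soft 0.41 (0.29 to 0.52) and that of stiff to intermediate -0.01 (-0.12 to 0.09). The level at 8 kPa thus already equalled that at 64 kPa within counting error, whereas Rela differed at both steps. This difference in shape was not tested, since each level has 1 library.

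Relb and Rel differed least among the subunits. Relb, the partner of p52 in the noncanonical pathway, spans bases 19339017 to 19363425 of chromosome 7 (minus strand) and has 12 exons. It had 1037, 1149 and 1049 normalized counts on the soft, intermediate and stiff plate, and the intervals of the 3 levels overlapped. The stiff to soft ratio was 0.02, with an interval from -0.11 to 0.14. Between intermediate and soft it was 0.15 (0.03 to 0.27), so a small excess at 8 kPa was larger than counting error alone as deposited. Scaling to the upper quartile shifts this comparison by -0.036, and the interval, which begins at 0.026, then includes 0.

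Rel, the subunit best known from lymphocytes and myeloid cells, spans bases 23686847 to 23721264 of chromosome 11 (minus strand), with 10 exons. It was the least abundant subunit, with 320, 383 and 295 reads, or 328, 361 and 303 normalized counts in the order soft, intermediate, stiff. The intervals of all 3 levels overlapped, and the stiff to soft ratio of -0.12 had an interval from -0.35 to 0.12. Only the stiff to intermediate ratio, -0.25, had an interval below 0, from -0.48 to -0.03. A difference in Rel between soft and stiff was not detectable at this depth.

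**Figure D2:**
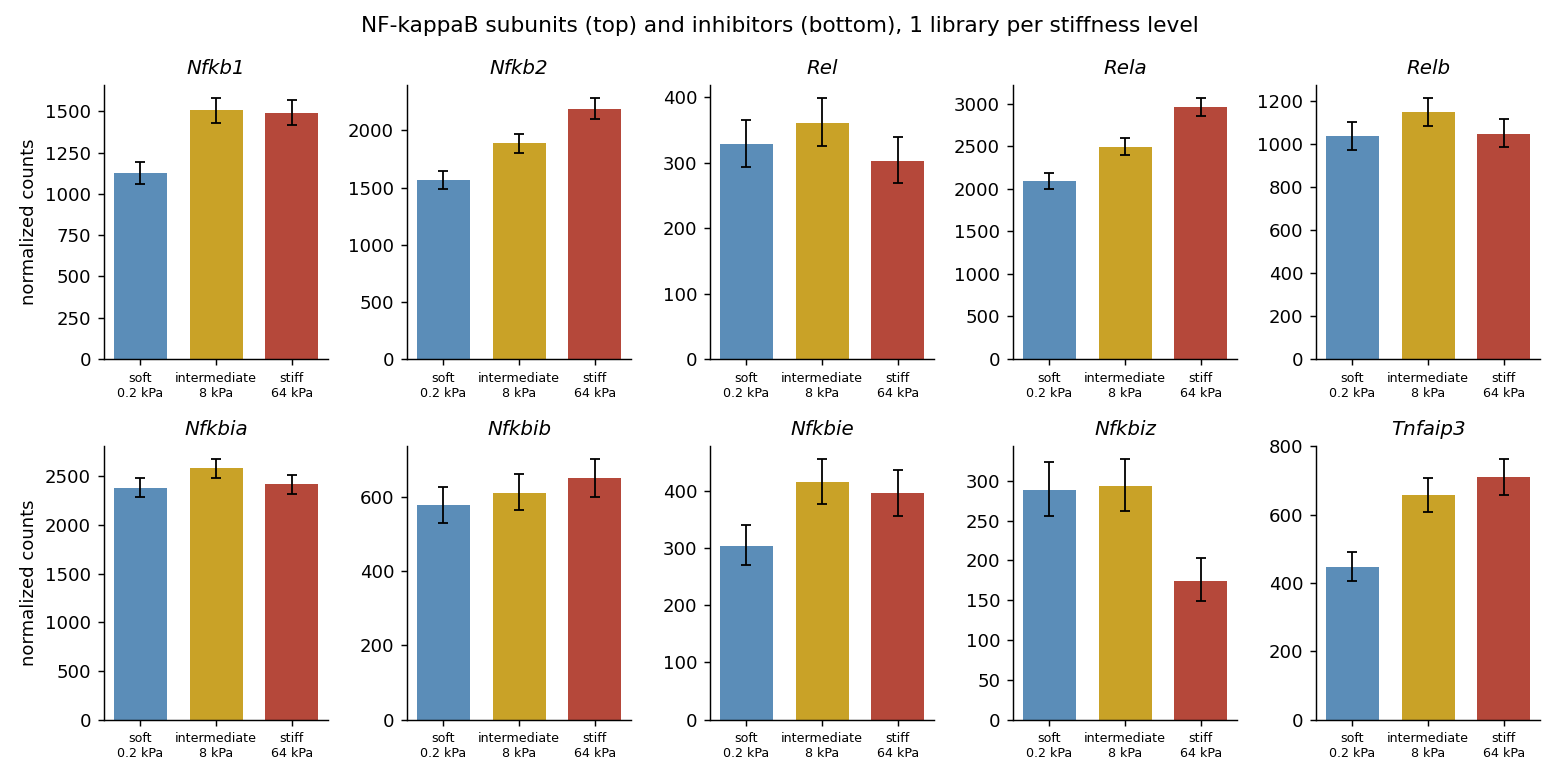
Normalized counts of each gene (vertical axes, each starting at 0) on the soft, intermediate and stiff plate, 1 bar per library, with exact 95% Poisson intervals of the reads as error bars. Rela and Nfkb2 are higher at each level (for Nfkb2 not after the length and GC correction on its canonical transcript), Nfkb1, Nfkbie and Tnfaip3 are lowest in the soft library, and Nfkbiz is lowest in the stiff library.

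The inhibitors fell into different patterns. Tnfaip3 encodes A20, a ubiquitin-editing enzyme that shuts off signalling upstream of IKK and is itself induced by NF-kappaB. It spans bases 18874201 to 18891405 of chromosome 10 (minus strand), with 9 exons. Its levels were 446 normalized counts on the soft plate, 656 on the intermediate plate and 709 on the stiff plate. The soft library was low, and the intervals of the other two overlapped. The stiff to soft ratio of 0.67 (0.49 to 0.84), a 1.59-fold difference, was the highest of the 10 genes, and the intermediate to soft ratio of 0.56 (0.38 to 0.73) was also the highest in its comparison.

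Nfkbiz went the other way in the stiff library. It encodes IkBzeta, an inducible nuclear IkB protein that binds p50 and is known to switch on a subset of late NF-kappaB genes as well as to inhibit others. The gene spans bases 55631738 to 55659262 of chromosome 16 (minus strand), with 12 exons. It was covered by 281 reads on the soft plate, 311 on the intermediate plate and 170 on the stiff plate, which is 288, 293 and 174 normalized counts. The soft and intermediate libraries overlapped, at a ratio of 0.03 (-0.21 to 0.26), and the stiff library was below both. Its ratios were -0.72 for stiff to soft (-1.01 to -0.44) and -0.75 for stiff to intermediate (-1.03 to -0.48), a fold of 0.605 and 0.595, and both lay outside the central 90% of all genes.

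Nfkbie, the IkBepsilon gene, spans bases 45866585 to 45874661 of chromosome 17 (plus strand) and has 6 exons. It had 303, 415 and 395 normalized counts on the soft, intermediate and stiff plate. The soft library was low and the other two overlapped, the same shape as that of Nfkb1. The ratios were 0.45 (0.24 to 0.67) for intermediate to soft and 0.38 (0.16 to 0.60) for stiff to soft.

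Nfkbia and Nfkbib, the genes of IkBalpha and IkBbeta, differed little. Nfkbia, a gene of 6 exons at bases 55535332 to 55539432 of chromosome 12 (minus strand), had 2380.5 normalized counts on the soft plate, 2582 on the intermediate plate and 2416 on the stiff plate. The stiff to soft ratio of 0.02 was bounded by an interval from -0.06 to 0.10. The intermediate library was slightly higher than the soft one, at 0.12 (0.04 to 0.20). Nfkbib, a gene of 6 exons at bases 28457486 to 28466937 of chromosome 7 (minus strand), had 577, 612 and 650.2 normalized counts, with overlapping intervals and a stiff to soft ratio of 0.17 (0.01 to 0.34). Its exons share 42 nt with those of Sirt2 on the other strand, which had 1428 to 1670 reads in a library.

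Counted over the family and set against the 11873 genes whose mean reached 50 normalized counts, no member reached a log2 ratio of 1 in size in any comparison. That threshold was reached by 3.6% of all genes for stiff to soft, by 0.168% for intermediate to soft and by 1.25% for stiff to intermediate. At a smaller threshold of 0.5, 2 members (Tnfaip3 and Rela) were higher and 1 (Nfkbiz) lower in the stiff than in the soft library, beside 11.8% of all genes higher and 3.77% lower. Rela lay at the threshold and fell short of it when scaled to the total (0.447) or the upper quartile (0.444) and after the length and GC corrections (0.43 and 0.37). Between intermediate and soft, 1 member (Tnfaip3) was higher and 0 were lower, beside 3.94% and 0.657%. Tnfaip3 fell short of 0.5 here after the canonical correction, at 0.47. Between stiff and intermediate 0 were higher and 1 (Nfkbiz) was lower, beside 5.42% and 3.42%. With 10 genes, counts of 1 or 2 are close to these shares.

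Smaller differences were more frequent. The counting interval of the stiff to soft ratio lay above 0 for 6 of the 10 genes and below 0 for 1, beside 31.3% and 25.9% of all genes. An interval clears 0 more easily with more reads, and the members and all genes were not matched for level. The 6 include Nfkbib, whose lower bound of 0.006 falls below 0 with the shifts of the total (-0.055) and upper quartile (-0.058) scalings. For intermediate to soft the interval lay above 0 for 7 and below 0 for 0, beside 21.8% and 13.5%. The 7 include Relb, whose lower bound of 0.026 falls below 0 with the upper quartile shift of -0.036. For stiff to intermediate the interval lay above 0 for 2 (Rela and Nfkb2) and below 0 for 4 (Rel, Relb, Nfkbia and Nfkbiz), beside 26.3% and 22%. These counts include Nfkb2, whose direction is uncertain. Without it they were 5 and 1, 6 and 0, and 1 and 4 of 9 genes. After the canonical correction the ratio itself was above 0 for 6 and below 0 for 4 of the 10 genes for stiff to soft, for 8 and 2 for intermediate to soft, and for 3 and 7 for stiff to intermediate. With the shortest coding transcripts these counts were 6 and 4, 10 and 0, and 4 and 6. The medians over all genes lay between -0.007 and -0.0005 in these versions. The median log2 ratio of the 10 genes was 0.28 for stiff to soft, 0.20 for intermediate to soft and -0.04 for stiff to intermediate, and the medians over all genes were 0.005, 0.01 and 0.006. After the corrections for length and GC content given below, the median of the 10 genes was 0.12 and 0.11 for stiff to soft, and 0.11 in both versions for intermediate to soft. The comparisons share libraries in pairs and are not independent. The macrophage markers differed in the same comparisons, with a median of 1.25 for stiff to soft, 0.44 for intermediate to soft and 0.76 for stiff to intermediate.

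**Figure D3:**
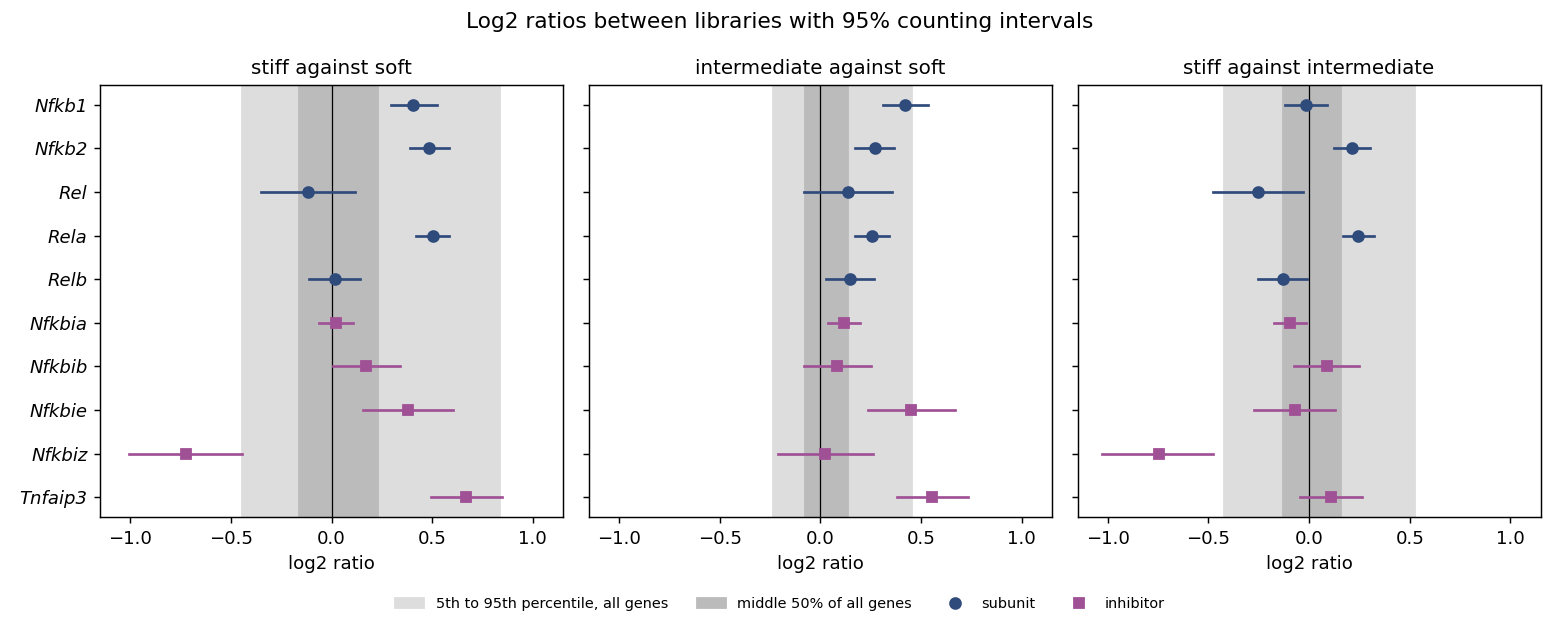
Log2 ratios between libraries for the 5 subunits (circles) and the 5 inhibitors (squares), with exact 95% counting intervals as lines. Grey bands show the middle 50% and the 5th to 95th percentile of all 11873 genes; Nfkbiz lies below the wider band in both comparisons with the stiff library, and Tnfaip3 above it between intermediate and soft.

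The makeup of the family within a library does not depend on how libraries were scaled. Inhibitors took 39.4% of the reads of the 10 genes in the soft library (exact 95% Clopper-Pearson interval 38.5 to 40.4), 38.1% in the intermediate (37.3 to 39.0) and 35.2% in the stiff library (34.4 to 36.1). As deposited, the share in the stiff library was below the others by more than counting error, and so it was without Nfkb2 (46.6%, 45.3% and 42.8%). With the trend of length and GC content described next taken out, the share was 39.4% on the soft, 40.3% on the intermediate and 38.6% on the stiff plate for the canonical transcripts, so the gap to the soft library was mostly gone and that to the intermediate one was smaller, and 38.8% and 36.5% on the last 2 for the shortest coding transcripts. The difference in share is therefore uncertain. Among the inhibitor reads the share of Nfkbiz was 7.21%, 6.43% and 4.01%, and that of Tnfaip3 11.2%, 14.4% and 16.3%, in the order soft, intermediate, stiff. Among the subunit reads Rela took 34.0%, 33.7% and 37.0%, while Relb took 16.9%, 15.5% and 13.1%. Without Nfkb2 these were 45.6%, 45.3% and 51.0% for Rela and 22.7%, 20.9% and 18.1% for Relb. With the canonical trend taken out, the shares on the stiff plate were 41.1% for Rela and 14.2% for Relb. These shares are of reads and so weight long transcripts more; they are compared here between libraries only.

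Ratios between libraries can follow transcript length and GC content, so a local trend of the ratio with both was subtracted as an alternative. The strength of this trend over all genes is not given here. Of the 10 genes, Nfkb2 was the one with an interval clear of 0 whose direction turned, while the ratios of Nfkb1 and Rela left their counting intervals without a change of sign. With length and GC content of the Ensembl canonical transcript, which has 6754 nt and 58.7% GC, its stiff to soft ratio changed from 0.49 to -0.11. With those of its shortest coding transcript, of 3846 nt, it was 0.16. The choice between the 2 gene models is not settled by the table, so the direction for Nfkb2 is uncertain. Under the same 2 versions the stiff to soft ratio was 0.43 and 0.37 for Rela, 0.21 and 0.42 for Nfkb1, 0.31 and 0.30 for Nfkbie, 0.52 and 0.68 for Tnfaip3 and -0.81 and -0.75 for Nfkbiz. The median over the 5 subunits also turned for stiff to soft, from 0.41 to -0.10 with the canonical transcripts, and was 0.16 with the shortest coding ones.

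The rest of the pathway was described through lists of its other parts. Of the other IkB proteins, Bcl3, a nuclear partner of p50 and p52, had 365, 496 and 511 normalized counts on the soft, intermediate and stiff plate, with a stiff to soft ratio of 0.48 (0.29 to 0.68). Nfkbid had only 12 to 29 reads and stayed under the minimum mean. The core kinases that release IkB differed little. Among 10 kinases that reached the minimum mean, 0 were higher and 1 was lower by at least 0.5 between stiff and soft, beside 11.8% and 3.77% of all genes. With 10 genes these counts are close to those shares, and the median ratio of the kinases was 0.06. Ikbkb had a stiff to soft ratio of 0.21 (0.06 to 0.36), Chuk of -0.09 (-0.20 to 0.01, and 0.05 after the canonical correction) and Ikbkg of 0.02 (-0.03 to 0.08). These 3 genes encode the IKKbeta, IKKalpha and NEMO subunits of the IKK complex.

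The kinase that was lower was Map3k8, which encodes TPL2, a MAP kinase kinase kinase held and stabilised by the p105 product of Nfkb1. It had 104 reads on the soft plate, 110 on the intermediate plate and 53 on the stiff plate, a stiff to soft ratio of -0.96 (-1.48 to -0.48). The stiff library stood below both others. Map3k14, the NIK kinase that starts p100 processing, had 11, 15 and 37 reads and was under the minimum mean.

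Of the 14 negative regulators other than those above, 2 were higher by at least 0.5 between stiff and soft and 0 lower, with a median of -0.01. By counting interval, 4 lay above 0 and 4 below. Over all genes the shares were 11.8% and 3.77% at 0.5, and 31.3% and 25.9% by interval, as given above, so these counts are near the background. The 2 past 0.5 were Tnip1 and Tnip3, whose proteins bind A20 and ubiquitin, while the related Tnip2 was at 0.06 (-0.25 to 0.37). Tnip1 had 441, 648 and 734 normalized counts, with a stiff to soft ratio of 0.73 (0.56 to 0.91) and an intermediate to soft ratio of 0.55 (0.38 to 0.73), values close to those of Tnfaip3. Tnip3 had 75.9, 97.1 and 147 normalized counts, with a stiff to soft ratio of 0.94 (0.54 to 1.38). The lowest were Commd1, whose protein promotes the removal of RelA, at -0.33 (-0.52 to -0.14) and Pdlim2, a nuclear ubiquitin ligase for RelA, at -0.28 (-0.40 to -0.17). Zc3h12a, which encodes the RNA-cleaving enzyme Regnase-1, was high in the intermediate library alone, with 532, 766 and 511 normalized counts. Cyld, a deubiquitinase that limits IKK activation, differed little, at 1899, 1727 and 1866.

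Between stiff and soft, 11.8% of all genes were higher and 3.77% lower by at least 0.5. Of 15 adaptors and ubiquitin ligases 0 passed this threshold in either direction, and their stiff to soft median was -0.01. Traf3, an adaptor that leads to the destruction of NIK, was the highest of them at 0.496 (0.35 to 0.64), just short of that threshold, but it was 0.09 after the canonical correction and 0.37 with the shortest coding transcript. Birc2, a ubiquitin ligase of the same complex, was the lowest at -0.21 (-0.39 to -0.04), and at -0.09 and -0.28 in the same 2 versions. Traf1, at a mean of 49.0, was just under the minimum mean and had 26, 58 and 64 reads. Of 11 receptors, 1 was higher by at least 0.5 and 0 lower, close to the 11.8% and 3.77% of all genes, with a median of -0.01. The one was Tnfrsf11a (RANK), a receptor best known from osteoclast precursors of the macrophage lineage, with 58, 71 and 106 reads and a ratio of 0.86 (0.40 to 1.36). Il1r1, the signalling IL-1 receptor, was lower at -0.18 (-0.23 to -0.12).

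Of the 11 ligands 6 had a mean of at least 50. Tnf, whose product is made largely by macrophages, had 53, 71 and 109 reads and a stiff to soft ratio of 1.03 (0.55 to 1.54). Il1a and Il1b were highest in the intermediate library, with 89, 194 and 121 reads for Il1a and 132, 189 and 109 reads for Il1b. Their ratios of intermediate to soft were 0.995 (0.63 to 1.38) and 0.39 (0.07 to 0.73). The median over the 6 ligands was -0.08 for stiff to soft and 0.20 for intermediate to soft.

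The 28 textbook targets differed in both directions. Among the 25 that reached the minimum mean, 7 were higher and 3 lower by at least 0.5 between stiff and soft, beside 11.8% and 3.77% of all genes, with a median of 0.09. Ccl20, a chemokine gene, had 43.1, 95.2 and 100.5 normalized counts and a ratio of 1.20 (0.69 to 1.78). C3, the central complement component, had 520, 737 and 1061 and a ratio of 1.03 (0.88 to 1.19). At the other end were the matrix protease genes Mmp3 at -1.14 (-1.16 to -1.11), Mmp13 at -1.02 (-1.06 to -0.98) and Mmp9 at -0.93 (-1.10 to -0.77), all lower in the stiff library as was Nfkbiz. After the canonical correction C3 was at 0.84 and Mmp13 at -0.88, both short of 1 in size, and Mmp9 was at -1.08. Between intermediate and soft, 3 targets were higher and 0 lower by at least 0.5, beside 3.94% and 0.657%, with a median of 0.15. Between stiff and intermediate 2 were higher and 5 lower, beside 5.42% and 3.42%, with a median of -0.13.

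**Figure D4:**
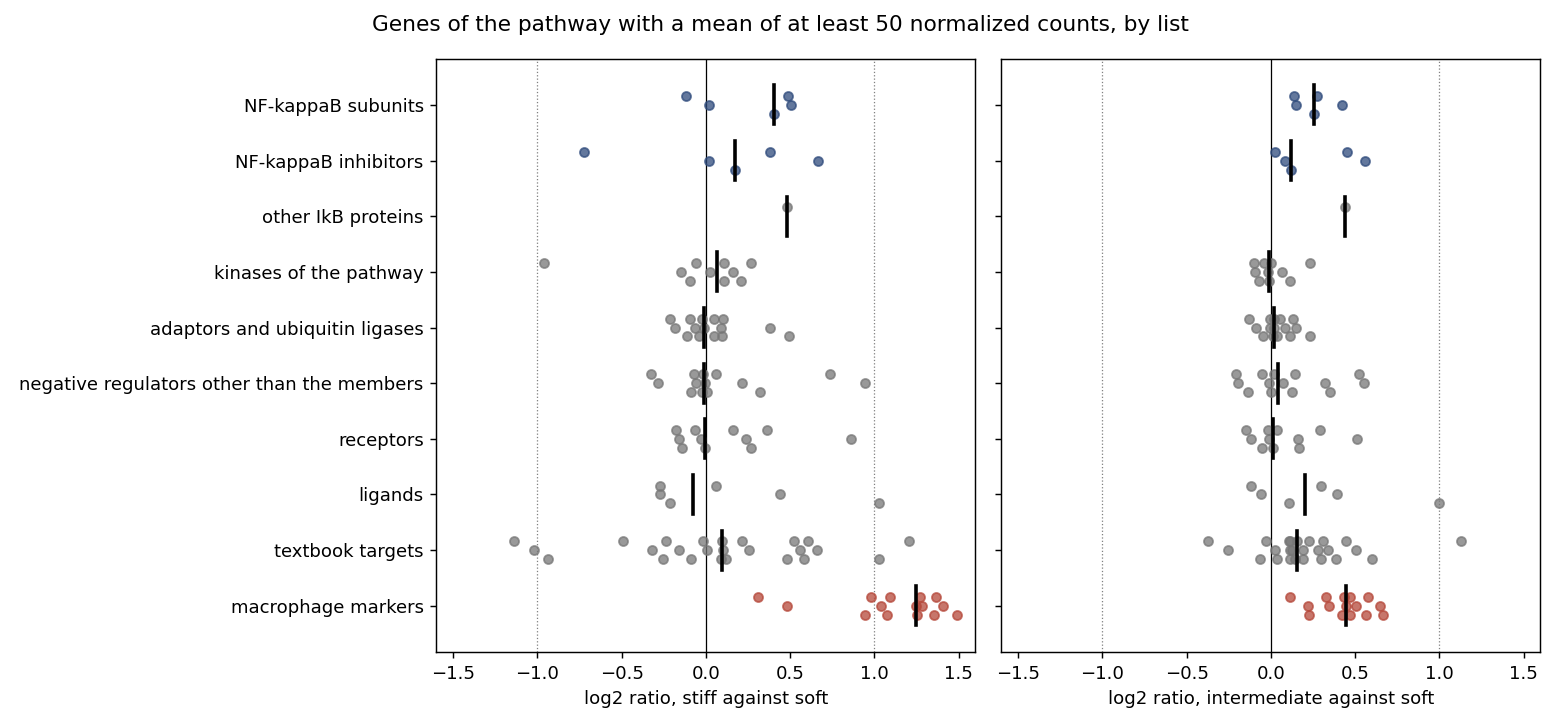
Log2 ratios of stiff to soft (left) and intermediate to soft (right) for each gene whose mean reached 50 normalized counts, by list; black bars are medians and dotted lines mark a log2 ratio of 1 in size. The subunits have a stiff to soft median of 0.41 (-0.10 after the length and GC correction on canonical transcripts), most other lists lie around 0, targets spread to both sides, and the macrophage markers lie highest, with a median of 1.25.

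Nfkbiz had the widest range of the 10 genes over the 3 libraries, 0.75 on the log2 scale. Likeness to its pattern was measured over 11435 genes as the distance between the pairs of log2 ratios to the soft library. The nearest were Pde1b (distance 0.0048), Col28a1 (0.023) and Ifi207 (0.027). Pde1b, a phosphodiesterase gene, had 799.6, 812.6 and 486 normalized counts on the soft, intermediate and stiff plate. In all, 29 genes lay within 0.1 of Nfkbiz. The measure rests on 3 libraries and so on 2 ratios only, and the counting intervals of the ratios of Nfkbiz are wider than these distances, so the order of the nearest genes is not resolved.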

How the data were processed

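Libraries were made with the Illumina TruSeq Stranded mRNA kit, per the labels' protocols. The authors deposited 1 table in 3 identical copies. Its signal values are normalized read counts, which the authors had scaled with 1 factor for each library, as the table's deposited name and the steps between its values show. STAR 2.7.9a, featureCounts, Subread 2.0.1, DESeq2 1.34.0 and build GRCm39 are named, per the submitters' processing notes. The annotation and strand setting are not given in the sources used here. Each column was assigned by its title. In each, 100% of positive values were whole multiples (within 0.01) of the smallest, and reads were recovered by dividing by it. A single read equals 1.03 (soft), 0.943 (intermediate) and 1.03 (stiff) normalized counts.

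With 1 library per level, no count-based test was made. Log2 ratios used a pseudocount of 1, which understates changes of low genes. Intervals (95%; Clopper-Pearson for ratios and shares, Poisson for levels) describe counting error alone, because there is 1 library per level. PCR copies counted as separate reads would make them too narrow. Shares of all genes past a threshold used a minimum mean of 50.

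Gene models came from GENCODE vM39, by symbol. The trend with length and GC content was a robust local linear fit over 300 neighbouring genes. Calculations were tested on simulated data.

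The members and lists were chosen with earlier results of these data known. Genes named were the 10 members, a selection, made after values were seen, from the 3 highest and 3 lowest of each pathway list per comparison, those past a log2 ratio of 1, and the 3 genes most like the member with the widest range; others were named after their values were seen (Nfkbid, Map3k14, Traf1, Tnip2, Il6, Lcn2 and Icam1, and the cell type markers and overlapping genes). Alternatives were pseudocounts, minimum means, scalings, the fold threshold, the trend and the gene length. Tools were scipy 1.17.1, numpy 2.4.6, scikit-learn 1.9.0 and pandas 2.3.3 under Python 3.11.15.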

Additional observations from a re-analysis of the deposited data

How the results depend on the processing

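No paired analysis was possible because each level has 1 library, and no library could be left out. The median log2 ratio of the 10 genes kept its sign in all 3 comparisons under every alternative run, from 0.11 to 0.28 for stiff to soft, 0.11 to 0.21 for intermediate to soft and -0.09 to -0.04 for stiff to intermediate. The count of members past a log2 ratio of 1 was 0 in every comparison under all pseudocounts, minimum means, scalings and trends. With a threshold of 0.5 it was 3 for stiff to soft, 1 for intermediate to soft and 1 for stiff to intermediate, by construction. Of 30 single ratios, 23 stayed inside their counting intervals throughout and 7 left them, each under a version of the length and GC trend. Nfkb2 changed sign in all 3 comparisons with the canonical transcript, to -0.108, -0.0817 and -0.0547 for stiff to soft, intermediate to soft and stiff to intermediate, but with the shortest coding transcript, a version chosen after seeing the data, it was 0.16, 0.10 and 0.07. Nfkb1 moved to 0.21 for stiff to soft and 0.29 for intermediate to soft with the canonical transcript, and Rela to 0.37 for stiff to soft and 0.17 for stiff to intermediate with the shortest coding one. The subunit median for stiff to soft changed from 0.41 to -0.0989 with the canonical transcripts, an alternative added after seeing the data. Ratios near 0 also changed sign inside their intervals, those of Relb and Nfkbia for stiff to soft and of Nfkbiz for intermediate to soft. Some shortest coding transcripts are fragments, such as that of Rela at 363 nt. The total and upper quartile scalings shift all stiff to soft ratios by -0.055 and -0.058. Per kilobase of canonical transcript, mean levels over the 3 libraries changed by over 1.5 times for Nfkb1 (107 to 292), Nfkbib (260 to 448) and Nfkbie (88.5 to 151). Depth limits statements on Rel, Nfkbiz and Nfkbie, whose intervals are the widest.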

Other observations

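The following values were chosen after they had been seen. Il6 and Lcn2, both known as genes that IkBzeta helps to switch on, were lower in the stiff library. Il6 had 946 normalized counts on the soft plate, 1109 on the intermediate plate and 758 on the stiff plate, with a stiff to soft ratio of -0.32 (-0.46 to -0.18). Lcn2 had 1431, 1455 and 1214, with a ratio of -0.24 (-0.35 to -0.12). Both ratios were smaller after the length and GC correction on canonical transcripts, at -0.11 for Il6 and -0.12 for Lcn2, and were -0.23 and -0.22 with the shortest coding transcripts. Other targets went the other way, such as Ccl20 at 1.20. Of the 25 textbook targets that reached the minimum mean, 12 had a stiff to soft interval above 0 and 9 below 0. The shares of all genes were 31.3% and 25.9%. The targets were not sorted by whether IkBzeta acts on them. In Il6 and Lcn2, as in Nfkbiz, the stiff library was the lowest of the 3. Any link to Nfkbiz was not tested.

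Genes that encode adhesion and growth factors regulated by NF-kappaB differed in direction within the same library. Icam1 had 1126, 1424 and 1689 normalized counts on the soft, intermediate and stiff plate, with a stiff to soft ratio of 0.58 (0.47 to 0.70), whereas Vcam1 had 10238.5, 9797 and 7292, with a ratio of -0.49 (-0.53 to -0.45). Csf1, the growth factor of macrophages, was higher at each level of stiffness, at 33996, 41721 and 51726, with a ratio of 0.61 (0.59 to 0.63). The macrophage marker sums given above increased in the same order as Csf1, and a relation between them was not tested. After the canonical correction the ratios were 0.43 for Icam1, -0.41 for Vcam1 and 0.42 for Csf1.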
